A study of Mus musculus with 4 samples.

Results

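Female mouse embryonic stem cells (mESCs) that carried a non-silencing control hairpin (Nons) were compared at day 6 of differentiation with undifferentiated cells at day 0. The comparison covers autosomal genes (chromosomes 1 to 19) whose deposited log2 CPM averaged at least 0 over the 4 libraries of the series, that is 12751 of the 24483 autosomal genes and of the 25965 genes listed. CPM is the number of reads per 1000000 reads of the library. The cells were F1 hybrids of FVB/NJ dams and CAST/EiJ sires, grown in 2i with LIF and then weaned over several days into DME HiHi medium, which contains serum and holds neither 2i nor LIF. The Nons cells received a retroviral hairpin without a target on day 2 and puromycin from day 3. The day 0 library is labelled as a non-silencing control as well. The remaining 2 libraries, Smarca4.4 and Smarca4.6, are day 6 cells with hairpins against the chromatin remodeller Smarca4, and are given here only as values beside those of Nons. Groups follow the titles, because the genotype field of Nons, like those of the Smarca4 libraries, reads Smarcc knockdown.

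Each group is 1 library, so differences cannot be set against replicate spread and p-values are not given. The day 6 libraries carry different hairpins and are not replicates. Many named genes were picked by the size of their difference, so the place of day 0 among the libraries is a description only. Days in culture, the change of medium, transduction and selection cannot be told apart. In bulk RNA, a change in the share of cells of one type and a change in RNA per cell cannot be told apart either.

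Embryonic stem cells held in 2i and LIF stand in the naive state of pluripotency, that of the epiblast of the blastocyst before implantation. It is maintained by a network of transcription factors around Nanog, Esrrb, Klf2 and Tfcp2l1. On release, cells lose that network, pass through a formative state marked by Fgf5, Otx2 and Pou3f1, and from there can enter the germ layers. The 2i inhibitors block the kinase MEK of the FGF and ERK pathway and the kinase GSK3, which restrains Wnt signalling.

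Reads per gene were recovered from the deposited values, whose smallest step in each library is 1 read. The totals were 18599402 reads at day 0 and 45759793 in Nons. A count of 3 reads, used as the smallest level that can be read, is 0.161 CPM at day 0 and 0.0656 CPM in Nons. The 100 most abundant genes took 18.1% of the listed reads at day 0 and 20.5% in Nons, and mitochondrially encoded genes took 2.19% and 1.20%. Y-linked genes, which a female line lacks, had 0 reads at day 0 but not at day 6. In Nons, Ddx3y had 83 reads (1.81 CPM), Eif2s3y 13, Uty 10 and Kdm5d 0. Ddx3y had 96 reads in Smarca4.4 and 107 in Smarca4.6. Their source and their part in the results below were not tested.

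More genes were higher than lower at day 6. Of the 12751 genes, 2519 (19.8%) were at least 2-fold higher in Nons and 1450 (11.4%) were at least 2-fold lower, and 8782 (68.9%) were neither. These 2 percentages are the background for every list below. The median difference was 0.05 on the log2 scale, with quartiles of -0.47 and 0.73. At 8-fold, 744 genes were higher and 211 were lower. Counting error alone left most of these calls in place, since the exact 95% interval of the ratio lay wholly past 2-fold for 1949 higher and 1105 lower genes. The genes that were higher took 4.17% of the library total at day 0 and 14.6% in Nons, and those that were lower took 11.6% and 3.46%. The calls fixed the direction of both shifts, so only their size is described.

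**Figure D1:**
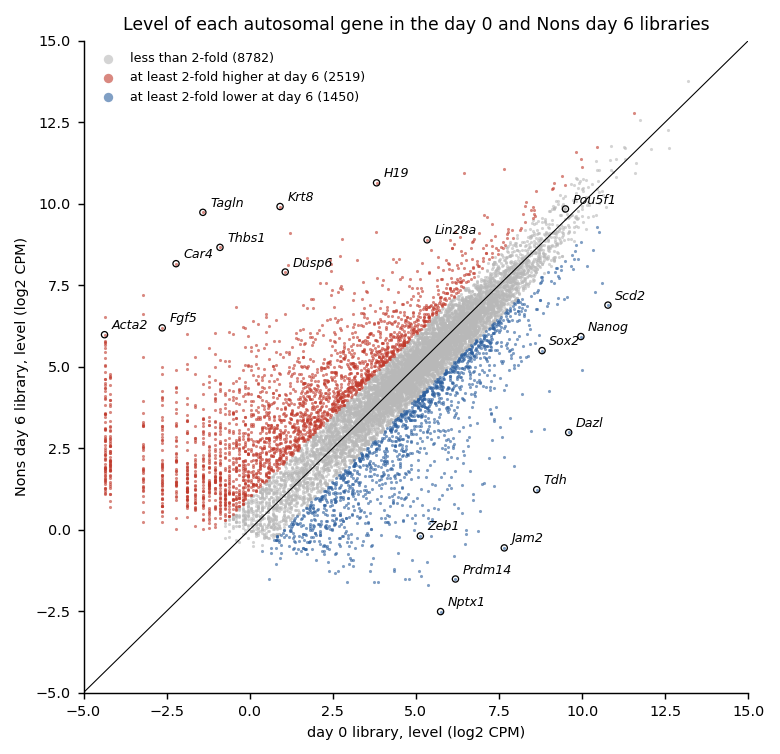
Level of each of the 12751 autosomal genes in the day 0 library (horizontal axis, log2 CPM) and in the Nons day 6 library (vertical axis, log2 CPM), with the diagonal marking equal levels and circled genes named in the text. Red points (2519) lie at least 2-fold above the diagonal and blue points (1450) at least 2-fold below it, and the column of points at the left edge holds genes with 0 reads at day 0.

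The excess of gains rests in part on the filter, because 3 of the 4 libraries it averages are from day 6. It left out 505 genes that had at least 1 CPM at day 0 and were at least 2-fold lower in Nons, against 298 with at least 1 CPM in Nons that were at least 2-fold higher. Without a filter, 45 autosomal genes went from at most 0.161 CPM to at least 10 CPM, and 22 went the other way. All 45 passed the filter and 0 of the 22 did. Among the genes it left out, named after their values were seen, were Trpm1, a melanocyte cation channel (113 CPM at day 0 and 0.0219 CPM in Nons), Notum, a secreted Wnt inhibitor (32.1 and 0.0219 CPM) and Cdx1, a caudal homeobox factor (29.4 and 0.0219 CPM). With the filter on day 0 and Nons alone, 2204 genes were higher and 1600 lower. In the lists below, members low at day 0 could pass only through the day 6 libraries, so counts over passing members are shaped by the filter and are descriptions. The genes next to the threshold were Tnfrsf9 and Nrg2 just outside, and Gm5093 and Zfp458 just inside. Tnfrsf9 was at 0.806 CPM at day 0 and 0.721 CPM in Nons, and Gm5093 at 0.645 and 1.22 CPM.

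The 10 largest gains were ranked by the bound of the counting interval nearest 0. The first was Tagln, an actin-binding protein of smooth muscle (chromosome 9, 45929628 to 45936058 in mm10), at 0.376 CPM at day 0, 852 CPM in Nons, 637 CPM in Smarca4.4 and 538 CPM in Smarca4.6. Its 7 reads at day 0 stood against 38984 in Nons, a log2 difference of 11.14 (95% counting interval 10.10 to 12.46). Car4, a carbonic anhydrase anchored at the cell surface, was at 0.215, 286, 256 and 206 CPM in the same order. The ranking fixed that day 0 lay far below Nons for both genes, and the Smarca4 libraries were high as well.

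Thbs1, a secreted matrix protein, was at 0.538, 404, 368 and 269 CPM in day 0, Nons, Smarca4.4 and Smarca4.6. Krt8, a keratin of simple epithelia, was at 1.88, 964, 1101 and 884 CPM. Cnn1, the smooth muscle calponin, had 2 reads at day 0 and 6657 in Nons, a ratio of 1353 with a counting interval of 374 to 11174. The other genes among the 10 largest gains had 0 reads at day 0, and their ratios are lower bounds against 3 reads there. Acta1, the skeletal muscle actin, was at least 572-fold higher in Nons at 92.2 CPM, and Acta2, the smooth muscle actin, at least 391-fold at 63.1 CPM. Myl9, a myosin light chain, was at least 344-fold higher at 55.5 CPM. Psmb8, a subunit of the immunoproteasome, was at least 337-fold higher at 54.3 CPM. Acta1 and Acta2 were lower in the other day 6 libraries, at 35.8 and 18.3 CPM for Acta1 and at 30.9 and 17.8 CPM for Acta2, while Myl9 and Psmb8 stood between 46.03 and 54.5 CPM there.

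The 10 largest losses among the genes that passed the filter were ranked in the same way. Some genes that it left out fell further by this bound, among them Trpm1 (-9.85) and Notum (-8.04), against -7.71 for Jam2. Jam2, a junctional adhesion molecule (chromosome 16, 84774123 to 84825928), was at 202 CPM at day 0 and at 0.677, 1.15 and 0.438 CPM in Nons, Smarca4.4 and Smarca4.6. Nptx1, a neuronal pentraxin, was at 53.6 CPM at day 0 and at 0.175, 0.488 and 0.384 CPM at day 6. Tdh, the mitochondrial threonine dehydrogenase (chromosome 14, 63492347 to 63509092), was at 398 CPM at day 0 and at 2.34, 3.33 and 4.33 CPM at day 6. The ranking fixed that Nons lay far below day 0 for these genes, and the Smarca4 libraries were low as well. The log2 differences of Nons from day 0 were -8.22 for Jam2, -8.26 for Nptx1 and -7.41 for Tdh. Prdm14, a repressor that holds cells in the naive state, fell by 7.71 on the same scale and Dazl, an RNA-binding protein of germ cells, fell by 6.62. The rest of the 10 were Sept1, a septin (-6.94), D14Ertd668e (-6.91), Dpp4, a surface peptidase (-6.96), H2-M5, a nonclassical MHC class I gene (-7.07), and Tcl1, a coactivator of the kinase Akt (-6.62).

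Eef1a1, a translation elongation factor, led both libraries at 9397 CPM at day 0 and 13829 CPM in Nons. Of the 10 most abundant autosomal genes of Nons, Eef2 (1.21) and Rps3 (1.29) passed 2-fold, and they encode another elongation factor and a ribosomal protein. Pkm and Ldha, glycolytic enzymes, differed by 0.81 and 0.90, and the chaperone genes Hsp90aa1 and Hspa8 by -0.89 and -0.39.

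All 14 naive pluripotency factors passed the filter, and all 14 were at least 2-fold lower in Nons, with a median of -5.05. Nanog, a homeobox factor at the centre of the network (chromosome 6, 122707489 to 122714633), was at 999 CPM at day 0 and at 60.7, 47.2 and 46.3 CPM in Nons, Smarca4.4 and Smarca4.6. Klf2, a zinc finger factor, was at 163 CPM at day 0 and at 2.51, 4.96 and 3.15 CPM at day 6. Esrrb, an orphan nuclear receptor, was at 459 CPM at day 0 and at 8.54, 9.42 and 8.80 CPM at day 6. The day 6 libraries were alike and far below day 0 for all of these. The losses were uneven. Tbx3, a T-box factor, fell by 6.35 and Zfp42, the classical stem cell marker Rex1, fell by 4.74, whereas Klf5 (111 and 31.5 CPM) and Fgf4, the growth factor that drives exit from the naive state (161 and 78.9 CPM), differed by -1.82 and -1.03.

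Core pluripotency factors did not move together. Of 12, all passing, 2 were higher and 6 lower, with a median of -0.98. Pou5f1 (Oct4), which is needed in both naive and primed cells, was at 724 CPM at day 0 and at 915, 701 and 982 CPM in the day 6 libraries, so day 0 lay inside their range. Sox2, its partner, was at 445 CPM at day 0 and at 45.0, 33.3 and 34.5 CPM at day 6, below day 0 in all of them. Lin28a, an RNA-binding inhibitor of let-7 processing, was at 40.4 CPM at day 0 and at 475, 388 and 457 CPM at day 6. Utf1, a chromatin-bound stem cell factor, was higher by 2.46, while Dppa5a (-3.02) and Dppa2 (-2.29) were lower. Trim28, the corepressor of zinc finger proteins, fell by 1.16.

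Formative and primed epiblast genes were mostly higher. All 11 passed, 7 were at least 2-fold higher and 1 lower, with a median of 2.59. Fgf5 (chromosome 5, 98254184 to 98277030) had 3 reads at day 0, or 0.161 CPM, and stood at 73.0, 83.1 and 96.0 CPM in Nons, Smarca4.4 and Smarca4.6. Its ratio between Nons and day 0 was 453, with a counting interval of 155 to 2197. Pou3f1, a POU factor, was at 4.30 CPM at day 0 and 188 CPM in Nons, and Cldn6, a claudin of embryonic epithelia, at 2.20 and 281 CPM. Otx2, a head and epiblast homeobox factor, went from 37.3 to 109 CPM, and the Wnt effector Lef1 from 66.1 to 14.1 CPM. Zic2 (-0.58) and Zic5 (-0.27) were within 2-fold.

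**Figure D2:**
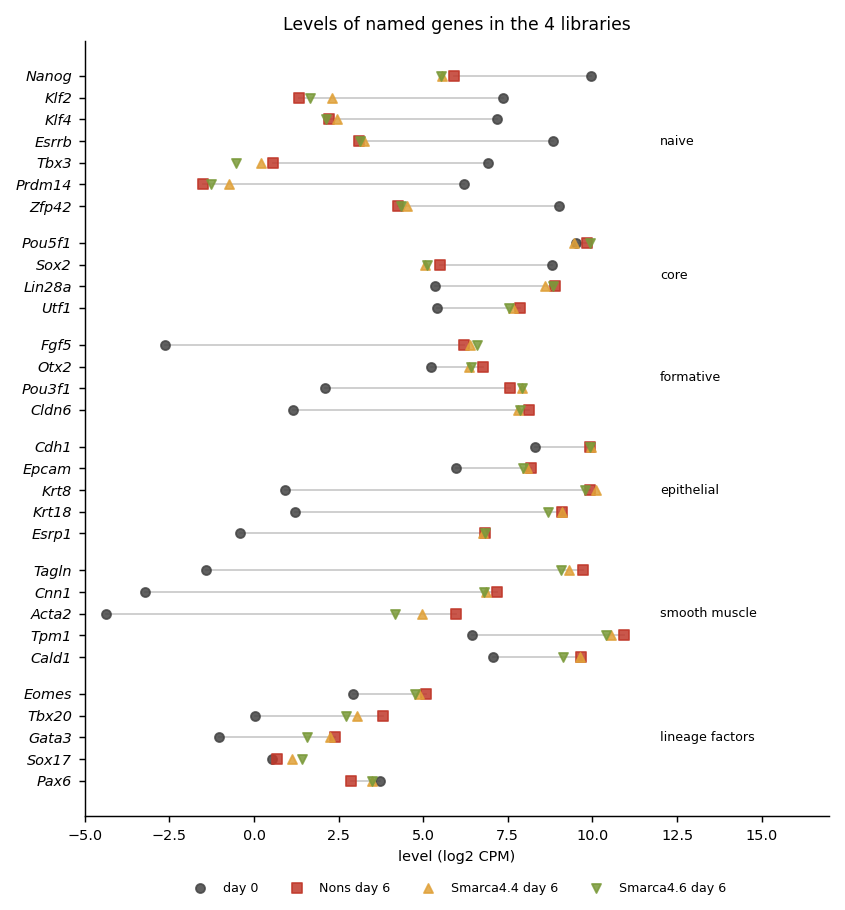
Levels (log2 CPM, horizontal axis) of 30 named genes in the day 0 (circle), Nons day 6 (square), Smarca4.4 day 6 (upward triangle) and Smarca4.6 day 6 (downward triangle) libraries, 1 value each and no error bars, with a grey line joining day 0 to Nons. The naive factors shown sit far to the left at day 6. The formative, epithelial and smooth muscle genes shown sit to the right, Otx2 and Cdh1 less far than most. Pou5f1 barely moves, Sox2 moves to the left, and the lineage factors move in both directions.

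Genes of the 2-cell-like state, in which rare stem cells transcribe genes of the early cleavage embryo, were low in both libraries and higher at day 6. Of 10, 8 passed the filter and all 8 were at least 2-fold higher, with a median of 2.31. All of the 8 but Tmem92 (1.02 CPM) were under 1 CPM at day 0 and passed through the day 6 libraries, so their count is a description. Zscan4d, a telomere-associated zinc finger gene, was at 0.430 CPM at day 0 and 3.78 CPM in Nons, and Tcstv1 at 0.215 and 3.23 CPM. The summed level of the 10 genes was 5.48 CPM at day 0 and 28.5 CPM in Nons. Many of the 10, such as the Zscan4 genes, are near-identical multicopy genes, so the split of reads between copies is uncertain.

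Germline genes that DNA methylation silences in somatic cells divided. Of 20, 18 passed, 5 were higher and 9 lower, with a median of -1.01. Dazl was at 775 CPM at day 0 and at 7.89, 9.63 and 5.10 CPM in Nons, Smarca4.4 and Smarca4.6. Hormad1, a protein of meiotic chromosome axes, was at 184 CPM at day 0 and at 8.89, 12.3 and 6.60 CPM at day 6. Sycp3, a component of the synaptonemal complex, went the other way, from 6.45 CPM to 59.2, 54.6 and 35.9 CPM. Day 0 lay outside the range of the day 6 libraries for each of them. Tdrd1, a Tudor protein of the piRNA pathway, was higher by 4.43, and Stk31 fell by 3.56.

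Many promoters of this class carry the E-box CACGTG, which the MGA and MAX proteins of a noncanonical Polycomb complex recognise. Of the 19 list genes with a RefSeq promoter window (GRCm38.p6, 250 bases before to 50 after the gene start), 10 held it, as did 8.09% of all 27025 genes in the table. CACGTG reads the same on both strands. The windows below show it in genes that were lower and in genes that were higher, in capitals, with the distance of its first base before the gene start.
Hormad1 (lower, 57 bases, chr3:95559610-95559635, plus strand): aagggtgcgcCACGTGccagtgacag
Stk31 (lower, 55 bases, chr6:49395474-49395499, plus strand): gccggccaccCACGTGaccagggctg
Sycp3 (higher, 64 bases, chr10:88459513-88459538, plus strand): cgttggctccCACGTGagaacgggca
Sycp3 (higher, 43 bases, chr10:88459534-88459559, plus strand): gggcatggagCACGTGctaggaggcg
Mael (higher, 223 bases, chr1:166238952-166238977, minus strand): ccaggcctacCACGTGacaatccccg
Ddx4 (within 2-fold, 29 bases, chr13:112652324-112652349, minus strand): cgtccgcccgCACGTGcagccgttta
The motif therefore stood in promoters of both directions. Ddx4, the Vasa helicase, was at 23.5 CPM at day 0 and 25.8 CPM in Nons, and Mael, a piRNA factor, at 3.60 and 11.9 CPM. The other motifs searched, GGCGGGA on either strand and TATAAA on either strand, were in 5 and 3 of the 19 windows, and in 12.7% and 15.7% of all promoters.

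Proliferation genes were mostly level. Of 20, 0 were higher and 5 lower, with a median of -0.11. The lower ones included Rrm2, a subunit of ribonucleotide reductase (624 and 139 CPM), E2f1, a factor of entry into S phase (73.3 and 21.4 CPM), and Mcm6, a part of the replicative helicase (578 and 238 CPM). The mitotic genes Ccnb1 (0.04), Cdk1 (0.18) and Plk1 (0.16) were within 2-fold. Among 15 cyclins and CDK inhibitors, 4 were higher and 3 lower. Cdkn1c (2.41) and Cdkn1b (1.53), inhibitors of cyclin-dependent kinases, were higher and Ccnd1, the cyclin of mitogen signalling, fell by 1.65.

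Of 17 p53 targets, 5 were higher and 1 lower, led by Perp, a desmosomal protein (2.85), and Bbc3, a BH3-only death gene (2.48), while Cdkn1a (-0.67) and Mdm2 (-0.04) were within 2-fold. Stress genes of the unfolded protein and amino acid responses were 0 higher and 1 lower of 14, with Asns, asparagine synthetase, at -1.22. Lysosomal genes were 2 higher and 2 lower of 15, with Ctsb, a cathepsin, at -1.84.

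Interferon-stimulated and antigen presentation genes included strong gains. Of 25, 19 passed, 10 were higher and 3 lower, with a median of 1.44. Besides Psmb8, Oasl2 went from 1 read at day 0 to 12.1 CPM, and the class I genes H2-K1 and H2-D1 from 7.85 and 3.49 CPM to 57.9 and 37.5 CPM. B2m, the shared light chain of class I molecules, went from 6.56 to 43.8 CPM. The lower genes included Oas1a (-2.94) and Ifitm2 (-1.21). The 6 that did not pass, among them Ifit1, Irf7 and Usp18, had at most 5.59 CPM in either library. For these genes too, the day, the medium and viral transduction cannot be told apart.

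Imprinted genes, which are expressed from 1 parental copy, were often higher. Of 21 found, 19 passed, 12 were higher and 2 lower, with a median of 2.20. H19, a maternally expressed noncoding RNA (chromosome 7, 142575529 to 142578143), was at 14.1 CPM at day 0 and at 1595, 2323 and 1642 CPM in Nons, Smarca4.4 and Smarca4.6. Peg10, a paternally expressed gene derived from a retrotransposon, was at 200 CPM at day 0 and at 2142, 3361 and 2530 CPM at day 6. Day 0 was the lowest library for both. Meg3, a maternally expressed noncoding RNA, was higher by 4.74 and Sgce, the neighbour of Peg10, by 3.87, while Plagl1 (-3.70) and Igf2r (-1.28) were lower. Values combine both alleles, so they say nothing of imprinting itself.

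Among 13 developmental RNA-binding proteins, 3 were higher and 2 lower. Esrp1, which sets epithelial splicing (chromosome 4, 11331933 to 11386783), was at 0.753 CPM at day 0 and at 114, 109 and 112 CPM at day 6, and Mbnl2 was higher by 3.11. Mbnl1 (-1.64) and Elavl2 (-1.18) were lower.

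Epithelial junction genes were higher almost throughout. All 20 passed, 19 were at least 2-fold higher and 0 lower, with a median of 2.11. Cdh1, E-cadherin (chromosome 8, 106603351 to 106670246), was at 313 CPM at day 0 and 978 CPM in Nons, and Epcam, an epithelial adhesion molecule, at 62.7 and 291 CPM. Marveld3, a tight junction protein, had 3 reads at day 0 and stood at 31.7 CPM in Nons. Crb3, an apical polarity protein, went from 1.40 to 66.2 CPM and Cldn7 from 1.40 to 98.7 CPM. Esrp2 alone was within 2-fold (0.96). Of the mesenchymal transition factors and markers, 8 of 13 passed, with 3 higher and 3 lower. Zeb1, the repressor of E-cadherin, was at 35.1 CPM at day 0 and at 0.874, 2.18 and 1.75 CPM at day 6, and Vim differed by -0.28. S100a6 (4.55) and Prrx2 (2.29) were higher.

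Smooth muscle contractile genes were the lineage list with the highest median, 3.73. Of 18, 14 passed and all 14 were at least 2-fold higher. The 4 that did not pass, Myh11, Actg2, Myocd and Mylk, had at most 1.18 CPM in either library. Actg2 had 0 reads in both, and Myh11, the smooth muscle myosin heavy chain, was at 0.269 and 1.18 CPM. The summed level of the 18 genes was 515 CPM at day 0 and 5294 CPM in Nons. Tpm1, a tropomyosin, was at 86.6 CPM at day 0 and at 1961, 1500 and 1339 CPM in Nons, Smarca4.4 and Smarca4.6, and Cald1, caldesmon, went from 133 to 812 CPM. Csrp1, a LIM protein, and Smtn, smoothelin, were both higher by 2.96, and Des, desmin, by 3.79. Many members are also actin cytoskeleton genes of other adherent cells.

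Many contractile promoters carry the CArG box, the site of serum response factor, which the Srf gene encodes. Srf itself was at 39.8 CPM at day 0 and 108 CPM in Nons. The box was in 3 of 14 smooth muscle list genes with a window, in 3 of 19 striated muscle list genes, and in 1.81% of all promoters. It is searched once, since it reads as itself on the other strand. Those of the higher genes that passed the filter are printed with the box in capitals and the distance of its first base before the gene start.
Myl9 (161 bases, chr2:156775293-156775322, plus strand): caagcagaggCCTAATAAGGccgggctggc
Vcl (227 bases, chr14:20929161-20929190, plus strand): cccactatgcCCTTATAAGGagcgccccgc
Srf (82 bases, chr17:46556225-46556254, minus strand): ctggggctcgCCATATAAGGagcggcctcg
Srf (62 bases, chr17:46556205-46556234, minus strand): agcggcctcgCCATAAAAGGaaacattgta
Acta1 (73 bases, chr8:123894829-123894858, minus strand): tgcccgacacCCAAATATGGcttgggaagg
Vcl, vinculin of focal adhesions, was at 165 CPM at day 0 and 520 CPM in Nons. The box was also in the window of Myl7, an atrial myosin light chain that fell by 2.55 (4.35 and 0.743 CPM), so it was not confined to genes that were higher. Windows are a description, and no binding was measured.

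Of 19 striated muscle sarcomere genes, 9 passed, 5 were higher and 3 lower, with a median of 1.11. The counting interval lay wholly past 2-fold for 2 of the higher genes and for all 3 lower ones. Apart from Acta1, Myh6, a cardiac myosin, was at 0.376 and 4.90 CPM, and Ttn, titin, fell by 2.23. Acta1 and Myh6 were under 1 CPM at day 0 and passed through the day 6 libraries. Actc1, the cardiac actin, had 0 reads at day 0 and was at 5.40 CPM in Nons, at least 33.5-fold higher, yet did not pass the filter. Tnni1, a troponin, fell below it from 9.14 to 0.153 CPM, and Tnnt2, the cardiac troponin T, was at 1.56 and 0.240 CPM.

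Primitive streak genes passed in 5 of 14 cases, with 3 higher and 2 lower. Eomes, a T-box factor of mesendoderm, was at 7.63 CPM at day 0 and at 33.9, 29.5 and 27.3 CPM in Nons, Smarca4.4 and Smarca4.6. T (Brachyury), the defining streak factor, was at 5.86 and 0.393 CPM, Mixl1 at 0.806 and 0.284 CPM, and Mesp1 had 0 reads in both libraries. Eomes thus stood above day 0 at day 6 while T stood below it.

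Lateral plate and cardiac progenitor factors passed in 5 of 15 cases, and these 5 were higher, with a median of 1.67. Hand1 and Gata4 were under 1 CPM at day 0 and passed through the day 6 libraries, and without the filter the median of the list was 0.67. Hand1, a factor of heart and extraembryonic mesoderm, was at 0.269 and 6.42 CPM, and Tbx20, a heart factor, at 1.02 and 14.1 CPM. Isl1, Mef2c and Tbx5 stayed at or below 0.590 CPM in Nons, and Meis2 went from 13.4 to 0.503 CPM. Of 12 paraxial and intermediate mesoderm factors 3 passed, and all were within 2-fold. Of 39 Hox genes 3 passed, namely Hoxd1 (1.46), Hoxd13 (-0.22) and 1 that fell by 1.62. Only for the gene that fell did the counting interval lie wholly past 2-fold. The summed level of the 39 was 25.9 CPM at day 0 and 6.77 CPM in Nons.

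Endoderm genes passed in 9 of 20 cases, with 3 higher and 0 lower. Dab2, an endocytic adaptor (3.59), Lamb1, a laminin chain (2.40), and Cubn, a scavenger receptor (2.33), were the higher ones. Sox17, a defining endoderm factor, was at 1.45 and 1.62 CPM, Foxa2 at 0.215 and 0.109 CPM, and Ttr had 0 reads in both. Neural genes passed in 8 of 19 cases, with 4 higher and 1 lower. Nes, the intermediate filament nestin, was at 43.7 and 380 CPM and Neurod1 at 0.430 and 5.46 CPM, while Sox1 was at 0.806 and 0.197 CPM and Pax6 at 13.2 and 7.34 CPM. Of 14 neural crest genes 7 passed, with 3 higher and 1 lower. Msx1, a homeobox factor, was higher by 4.59, Ngfr, a neurotrophin receptor, fell by 5.01, and Sox10 had 0 reads at day 0 and stood at 2.47 CPM in Nons without passing.

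Trophectoderm and placental genes passed in 11 of 15 cases, with 6 higher and 2 lower. The higher ones were Krt8, Krt18, Krt7, Krt19, Peg10 and Gata3, of which the keratins are shared with other simple epithelia. Krt18 was at 2.31 CPM at day 0 and 554 CPM in Nons. The defining factors Cdx2 and Elf5 were at 0.219 and 0.437 CPM in Nons, and Tfap2c fell by 2.40. Surface ectoderm and keratinocyte genes passed in 7 of 12 cases, with 6 higher and 1 lower. Sfn, 14-3-3 sigma, went from 6.51 to 333 CPM. Grhl3, an epidermal factor, fell by 4.45 and Trp63, the master factor of stratified epithelia, had 0 reads in Nons.

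Endothelial genes passed in 7 of 15 cases, with 2 higher and 3 lower. Pecam1, an adhesion molecule that naive stem cells share with endothelium, was at 227 and 10.7 CPM, and Vwf, von Willebrand factor, at 27.7 and 0.350 CPM. Flt1, a VEGF receptor, was at 1.51 and 75.8 CPM, while Cdh5, VE-cadherin, was at 0.806 and 0.503 CPM. Blood cell genes passed in 5 of 16 cases, with 2 higher and 1 lower. Ptprc (CD45) had 0 reads in both libraries, Runx1 went from 0 reads to 2.73 CPM, and Kit fell by 4.74.

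Fibroblast and mesenchymal matrix genes passed in 12 of 20 cases, with 6 higher and 3 lower. Their summed level was 1415 CPM at day 0 and 295 CPM in Nons, most of it Fn1, fibronectin, at 1341 and 157 CPM. Col1a1 was at 2.85 and 16.8 CPM and Col5a2 went from 1 read to 13.9 CPM. The fibroblast markers Col3a1, Lum, Postn and Fap were between 0 and 0.350 CPM in Nons. Collagen genes, counted as a family, were 11 higher and 3 lower of 21 passing among 41. Of 17 integrin genes passing among 29, 9 were higher and 2 lower. Itga3, the alpha chain of a laminin receptor, went from 9.41 to 311 CPM and Itgb1, the common beta chain, from 378 to 826 CPM.

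Signalling lists moved in different directions. FGF and ERK feedback and target genes passed in all 15 cases, with 11 higher and 1 lower and a median of 2.27. Dusp6, the phosphatase of ERK (chromosome 10, 99263231 to 99267488), was at 2.10 CPM at day 0 and at 239, 312 and 326 CPM in Nons, Smarca4.4 and Smarca4.6. Spry4, a feedback inhibitor of receptor kinases, was at 0.215 and 29.9 CPM and Myc at 4.41 and 30.8 CPM, while Etv5 was at 424 and 190 CPM. Spry2 (-0.24) and Spred2 (-0.28) were within 2-fold, so the feedback genes did not all move.

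Wnt targets were more often lower than higher. Of 14, 8 passed, with 2 higher and 5 lower and a median of -1.32. Axin2, the classical feedback target, was at 24.5 and 4.87 CPM, and Lef1 is described above. Rnf43, a ubiquitin ligase that removes Wnt receptors, was higher by 3.53. Sp5, Notum and Cdx1 did not pass and were lower still, from 15.97, 32.1 and 29.4 CPM to at most 0.153 CPM.

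LIF and STAT3 pathway genes passed in 9 of 10 cases, with 2 higher and 4 lower. The LIF receptor Lifr (26.1 and 5.55 CPM), its partner Il6st (128 and 29.8 CPM) and the feedback inhibitor Socs3 (52.5 and 11.7 CPM) were lower, and Junb, an immediate early factor, was higher by 3.78. Of 15 passing Nodal, TGF-beta and BMP genes, 7 were higher and 4 lower. Id1, an inhibitor of basic helix-loop-helix factors and a BMP target, was at 0.860 CPM at day 0 and at 73.6, 72.5 and 71.7 CPM at day 6, whereas Lefty2, an antagonist of Nodal, went from 224 to 30.0 CPM.

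YAP and TEAD targets passed in all 9 cases, with 8 higher and 0 lower and a median of 2.42. Cyr61, a matricellular protein, was at 13.98 CPM at day 0 and at 559, 554 and 493 CPM at day 6. Ankrd1, a cardiac ankyrin repeat protein, had 0 reads at day 0 and was at least 101-fold higher in Nons at 16.2 CPM. Of 10 passing Notch pathway genes 4 were higher and 1 lower, with the ligand Dll3 at 1 read and 6.62 CPM, the glycosyltransferase Lfng at 0.430 and 23.2 CPM, and the ligand Jag1 at -2.33. Dll1, Dll3 and Lfng were under 1 CPM at day 0 and passed through the day 6 libraries. Hey2, which did not pass, went from 1.24 to 0.546 CPM, and Heyl, which did not pass either, had 0 reads and 1 read. Retinoic acid genes were 3 higher and 0 lower of 6 passing, led by Crabp2, a retinoic acid carrier (4.30). Falls lay among the members that did not pass, namely Stra8 (17.3 and 0.262 CPM), Aldh1a2 (5.32 and 0.372 CPM) and Rarb (2.04 and 0.524 CPM). Cyp26b1 and Stra6, which did not pass either, were within 2-fold. Hedgehog genes were 0 higher and 4 lower of 6 passing. The receptor Ptch1 went from 102 to 22.0 CPM and the effector Gli2 from 84.8 to 5.29 CPM.

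**Figure D3:**
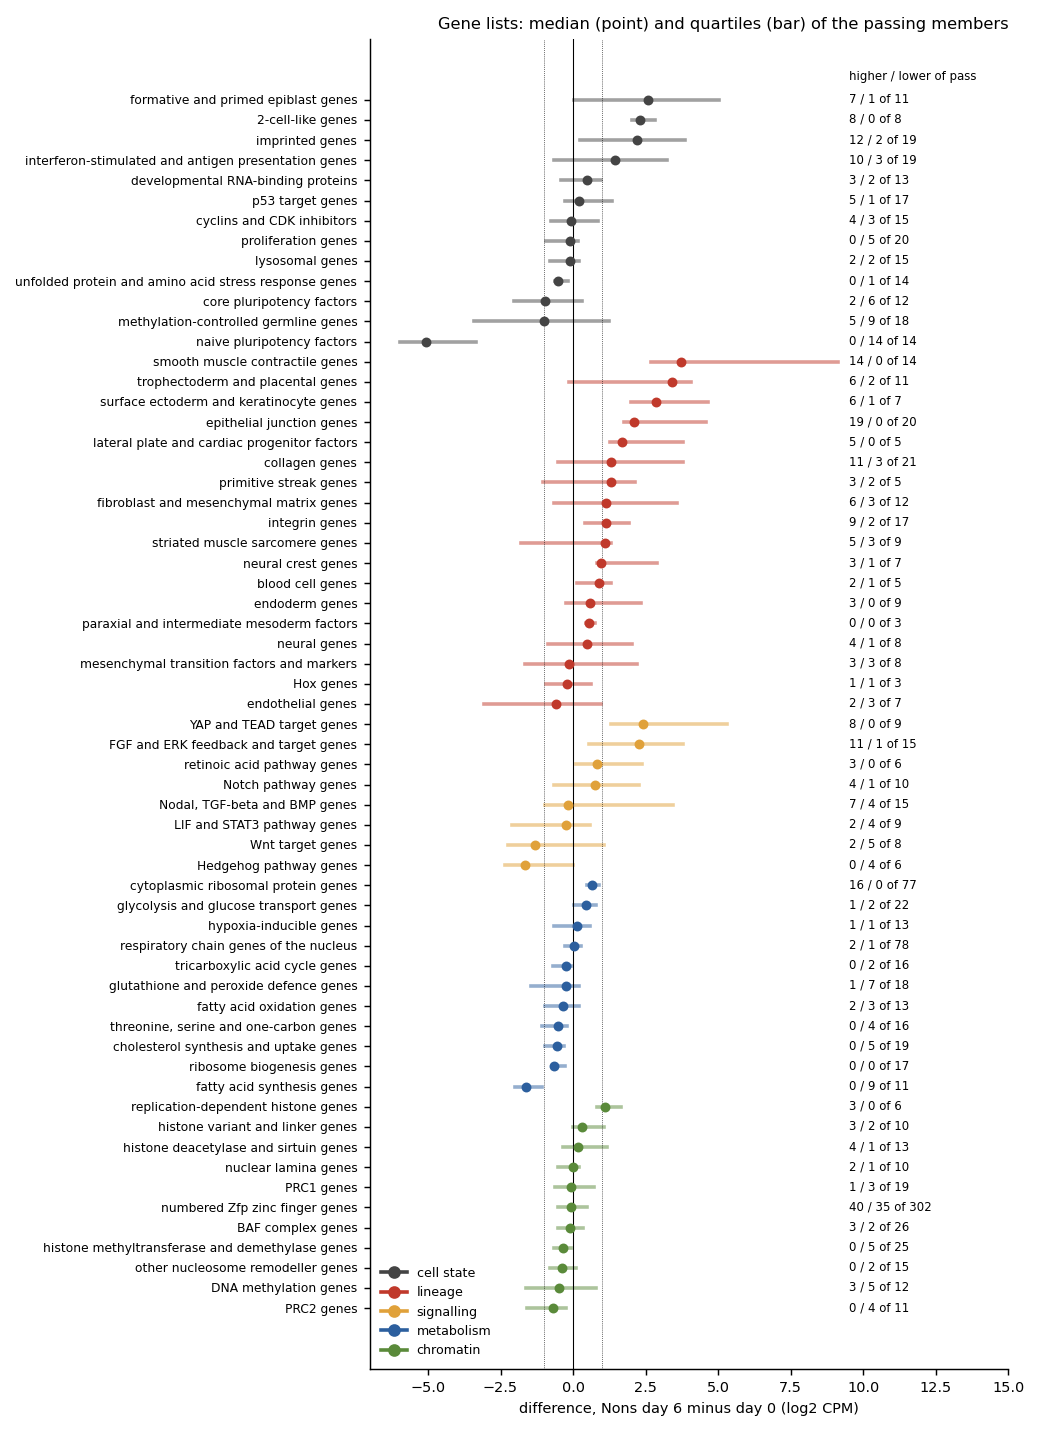
Difference between Nons day 6 and day 0 (horizontal axis, log2 CPM) for 61 gene lists grouped by colour, with the point at the median and the bar over the quartiles of the members that passed the filter, and dotted lines at 2-fold. At the right stand the members at least 2-fold higher and lower of those passing. Naive factors (0 / 14 of 14) are farthest left and smooth muscle genes (14 / 0 of 14) farthest right.

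The 11 metabolic lists held 300 passing entries, of which 23 were higher and 34 lower. Of these 23, 16 were ribosomal protein genes. Over all genes 19.8% were higher and 11.4% lower. In the highest of 5 equal bins of genes by mean level, the shares were 9.06% and 5.69%. No result is drawn from the pooled count. Fatty acid synthesis had the lowest median of the 11 lists, -1.63, and 9 of its 11 genes, all passing, were at least 2-fold lower. Scd2, a stearoyl-CoA desaturase (chromosome 19, 44293676 to 44306864), was at 1757 CPM at day 0 and at 118, 129 and 186 CPM in Nons, Smarca4.4 and Smarca4.6. Fasn, fatty acid synthase, was at 1145 CPM at day 0 and at 270, 325 and 434 CPM at day 6. Day 0 was the highest library for both. Acly, which supplies cytosolic acetyl-CoA, fell by 1.58, and Acaca (-0.96) and Elovl5 (-0.56) were within 2-fold.

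Cholesterol synthesis and uptake genes were 0 higher and 5 lower of 19, with Dhcr7 at -1.70, Insig1 at -1.68 and Hmgcs1 at 0.74. In threonine, serine and one-carbon metabolism 0 were higher and 4 lower of 16. Tdh is described above, and Gcat, the next enzyme of threonine breakdown, was within 2-fold (51.8 and 42.9 CPM). Amt, of the glycine cleavage system, fell by 1.73, and Shmt1 fell by 1.59. In fatty acid oxidation, 2 of 13 were higher and 3 lower. Cpt1a, the entry step for long chains into mitochondria, went from 115 to 9.72 CPM, while Acadl went from 18.2 to 83.3 CPM.

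Of 77 ribosomal protein genes, all passing, 16 (20.8%) were at least 2-fold higher, a share near the background of 19.8%, and 0 were lower. The median was 0.67, against 0.05 over all genes, and 73 of the 77 lay above 0. Rpl13a was at 900 and 3048 CPM, and the summed level of the list was 41197 CPM at day 0 and 69317 CPM in Nons. Of 17 ribosome biogenesis genes, 0 were higher and 0 lower, 2 lay above 0, and the median was -0.64, with the nucleolar proteins Ncl at -0.67 and Npm1 at -0.38. Many ribosomal protein genes have processed pseudogenes, so reads may be split between copies.

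Glycolysis and glucose transport genes were 1 higher and 2 lower of 22, with a median of 0.45. Eno3, the muscle enolase, was higher by 3.23, and Pfkp (-2.36) and Hk2 (-1.23), a phosphofructokinase and a hexokinase, were lower. Respiratory chain genes of the nucleus were 2 higher and 1 lower of 78, with a median of 0.02. Atp5g1, a subunit of the ATP synthase rotor, fell by 1.88 and Cox4i2, the subunit of cytochrome oxidase used in low oxygen, was higher by 2.53. Tricarboxylic acid cycle genes were 0 higher and 2 lower of 16 (Idh2 at -1.36 and Sucla2 at -1.04). Hypoxia-inducible genes were 1 higher and 1 lower of 13 passing. Glutathione and peroxide defence genes were 1 higher and 7 lower of 18, with Gss (-2.98), Gsr (-2.75) and Gsta4 (-2.35) lower and Gpx8, a peroxidase of the endoplasmic reticulum, higher by 4.41.

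Polycomb repressive complex PRC2, which methylates histone H3 at lysine 27, had 0 of 11 genes higher and 4 (36.4%) lower, against a background of 11.4%, with a median of -0.69. Of the 11, 2 lay above 0. Suz12, a core subunit, went from 813 to 270 CPM, Mtf2 from 574 to 191 CPM and Phf19 from 50.4 to 8.33 CPM, while the catalytic Ezh2 differed by -0.50. In PRC1, 1 of 19 was higher and 3 lower, with Bmi1 at -2.08 and Pcgf5 at 1.18.

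DNA methylation genes were 3 higher and 5 lower of 12. Dnmt3b, a de novo methyltransferase (chromosome 2, 153649450 to 153687730), was at 80.8 CPM at day 0 and at 509, 602 and 795 CPM in Nons, Smarca4.4 and Smarca4.6. Dnmt3l, its cofactor, was higher by 1.88. Tet2, which oxidises methylcytosine, was at 154 CPM at day 0 and at 11.6, 12.6 and 11.3 CPM at day 6. Tet1 (-1.69), Uhrf1 (-1.58) and Dnmt1 (-1.17), the last 2 being the maintenance machinery, were lower as well, and Zfp57, which protects imprints, fell by 2.38.

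BAF complex genes were 3 higher and 2 lower of 26 passing, with a median of -0.09. Smarca4 (Brg1), the ATPase, was at 244 CPM at day 0 and 229 CPM in Nons, and Smarca2 (Brm), the alternative ATPase, at 19.4 and 3.65 CPM. Bcl11a (4.02) and Bcl11b (2.25), zinc finger subunits, were higher. Other nucleosome remodellers were 0 higher and 2 lower of 15, namely Chd3 (-1.67) and Chd2 (-1.11), and Chd4 differed by 0.08. Histone methyltransferases and demethylases were 0 higher and 5 lower of 25, with Kdm5b, a demethylase of lysine 4, at 822 and 344 CPM.

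Histone deacetylases and sirtuins were 4 higher and 1 lower of 13. Hdac5 (18.98 and 80.2 CPM) and Hdac7 (3.28 and 17.2 CPM), signal-responsive class IIa enzymes, were higher, and Sirt1 fell by 1.01. Histone variants were 3 higher and 2 lower of 10. H1f0, the linker histone of differentiated cells, went from 33.2 to 133 CPM, and H2afy, which encodes macroH2A1, from 191 to 34.8 CPM. Of 68 replication-dependent histone genes 6 passed, 3 of them higher. The transcripts of this family lack poly(A) tails. Nuclear lamina genes were 2 higher and 1 lower of 10. Lmna, the A-type lamin, was at 5.91 CPM at day 0 and at 64.1, 75.9 and 61.1 CPM at day 6, and Lmnb1 was at 613 and 438 CPM. Numbered Zfp genes, a large family of mostly DNA-binding zinc finger proteins, were 40 higher (13.2%) and 35 lower (11.6%) of 302 passing, with Zfp608 the largest gain (0 reads and 24.5 CPM).

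Between paired genes, most of them of one family, the balance often shifted. The order of a pair in CPM did not always change. Smarca4, Lmnb1, Cdh1 and Mycn had more CPM than their partners Smarca2, Lmna, Cdh2 and Myc in both libraries. Klf6, Dnmt3b and Esrp1 had less than Klf2, Dnmt3a and Mbnl1 at day 0 and more in Nons. CPM is not corrected for transcript length, so this order is not one of transcript number. Length cancels in the change of a ratio. Of 25 pairs, the ratio of levels changed at least 2-fold in 16, and in 4 pairs the genes moved in opposite directions past 2-fold each. The ratio of Klf6 to Klf2, Krüppel-like factors, rose 267-fold (log2 8.06, counting interval 7.78 to 8.34) as Klf6 went from 83.0 to 342 CPM. The ratio of Myc to Mycn rose 26.7-fold, with Mycn at 175 and 45.9 CPM. The ratio of Cdh2 (N-cadherin) to Cdh1 changed by -2.89 (-3.18 to -2.61), since Cdh2 went from 10.7 to 4.50 CPM. The fourth pair was Mbnl1 and Esrp1, with a change of -8.88. These are splicing regulators paired by function and not members of one family.

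Other pairs changed through 1 member. The ratio of Lmna to Lmnb1 rose 15.2-fold and that of Smarca2 to Smarca4 changed by -2.32 (-2.59 to -2.05). Dnmt3a stayed within 2-fold (144 and 179 CPM), so its ratio to Dnmt3b changed by -2.34. The ratio of Lin28b to Lin28a changed by -2.77, and that of Hdac7 to Hdac2 rose 5.58-fold. In glycolysis the balance of Hk1 and Hk2 (0.33) and of Ldhb and Ldha (-0.62) moved by less than 2-fold, as did that of Ezh1 and Ezh2 (0.95) and of Tet3 and Tet1 (0.71).

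**Figure D4:**
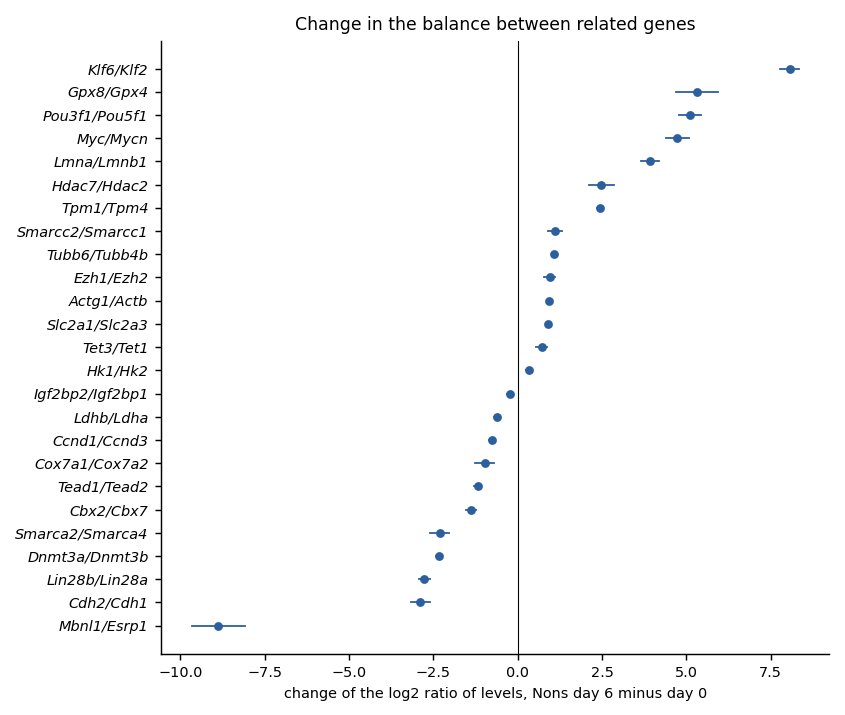
Change between day 0 and Nons day 6 in the log2 ratio of the levels of 25 pairs of genes related by family or function (horizontal axis), with the point at the value and the bar over its 95% counting interval. Klf6/Klf2 and Gpx8/Gpx4 lie farthest right, and Mbnl1/Esrp1 farthest left.

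Some properties went with the direction of change. GC content and length were taken from the longest GENCODE M21 transcript of each symbol, found for 90.2% of the genes. The median GC content was 52.9% for the higher genes (2320 with a value), 50.5% for the lower (1327) and 49.5% for the others (7849). In 5 equal bins of GC content, from the lowest to the highest, the share at least 2-fold higher went from 12.9% to 31.8%, while the share lower stayed between 9.65% and 13.01%. By transcript length, the share higher went from 23.4% in the shortest bin to 18.6% in the longest, and the share lower from 8.95% to 14.4%. The lower genes spanned a median of 29.6 kb on the genome and the higher genes 19.2 kb.

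**Figure D5:**
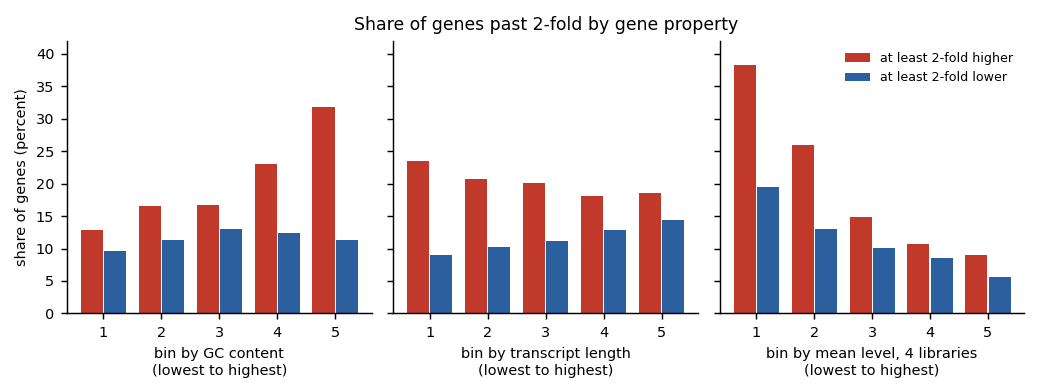
Share of genes at least 2-fold higher (red bars) and lower (blue bars) in Nons day 6 than at day 0 (vertical axis, percent) in 5 equal bins of the genes by GC content, transcript length and mean level over the 4 libraries (horizontal axes, lowest to highest). The share that was higher grows with GC content, from 12.9% to 31.8%, and both shares shrink with the mean level.

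By mean level, 38.3% of the lowest bin were higher and 19.5% lower, against 9.06% and 5.69% of the highest bin. The lowest bin lies next to the filter threshold, where genes low at day 0 could pass only through the day 6 libraries. Counting error is also largest there, so these shares are a description. Between chromosomes, medians ranged from -0.08 on chromosome 13 to 0.24 on chromosome 15, where 25.1% of 499 genes were higher and 8.42% lower. Promoters were not compared between classes, because the RefSeq table matched 76.2% of the genes by symbol, which was too few.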

How the data were processed

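RNA-seq was measured in 4 libraries, 1 per group. The authors trimmed paired-end reads, aligned them with HISAT2 (named in the submitters' processing notes, with bcl2fastq) to mm10 with strain variants masked, and quantified genes in SeqMonk. The deposited values are log2 CPM, called log2 rpm by SeqMonk. Both mates of a pair may be counted, the strand setting was not stated, and overlapping or near-identical genes may share reads. In each library 2 to the power of the value was a whole multiple of 1 step for at least 99.9% of values above 0 (within 0.05 of a step), and a gene without reads carries 0.9 of a step. Depth was 18599402 reads at day 0 and 45759793 in Nons.

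Differences are Nons day 6 minus day 0 of the deposited log2 CPM, over autosomal genes with a mean of at least 0. A call is a difference of at least 2-fold. Exact 95% (Clopper-Pearson) intervals of ratios come from recovered reads. Intervals, and the floor of 3 reads, cover counting error only. List members were matched by symbol or, where its position overlapped, by a RefSeq synonym, and symbols listed more than once were left out. Coordinates are those of the deposited table, and promoter windows are from RefSeq (GRCm38.p6).

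The members, 61 lists, 25 pairs and promoter motifs were chosen with earlier results of these data known. Named are the 10 largest rises and falls by the interval bound nearest 0, up to 2 of each direction and the first 2 entries per list, the pairs, the 10 most abundant genes per library, and the genes next to the filter threshold. Some genes that this rule selects are not reported here. Other list members are examples chosen after their values were seen, as were 7 further lists. Alternatives changed the filter, pseudocount, scaling, floor and call rule. The computations were tested on simulated data. Scripts ran in Python 3.11.15 (pandas 2.3.3, numpy 2.4.6, matplotlib 3.10.9, scipy 1.17.1).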

Additional observations from a re-analysis of the deposited data

Results flagged for a closer look

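Reads of Y-linked genes, which are outside the autosomal comparison, appeared in the Nons day 6 library of a line labelled female and were absent at day 0. Ddx3y, an RNA helicase gene, had 83 reads, Eif2s3y, a translation factor gene, had 13 and Uty, a histone demethylase gene, had 10. Kdm5d had 0. Ddx3x, the X-linked relative of Ddx3y, had 44965 reads in Nons. The source of the reads was not tested.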

How the results depend on the processing

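Without a filter the counts were 4365 higher and 9818 lower and the autosomal median was -0.39, because a gene with 0 reads in both libraries is written as 0.9 of a read in each and so differs by the ratio of the depths. A mean of at least 3 left 1256 higher and 807 lower, with a median of -0.00598. A 4-fold rule left 1326 and 518. The autosomal median was 0.00761 when day 0 and Nons alone were filtered, 0.0289 with 1 CPM in either, 0.00 when centred on itself, and 0.0861 with totals that left out the 100 most abundant genes. Higher genes were 63.5% of all calls, and 57.9% when the filter read day 0 and Nons alone. Without a filter the median became 0.67 for lateral plate and cardiac factors, -0.49 for paraxial and intermediate mesoderm factors, 4.29 for guanylate-binding and immunity-related GTPases, -1.30 for keratins and 0.51 for H2 genes. Hox genes had a median of -2.34 with the filter on day 0 and Nons and -3.06 with 1 CPM in either, and the GTPases 3.79 with a pseudocount of 1 CPM. The other 532 list medians recomputed stayed within their interval. Of 957 recomputed differences of single genes, 168 moved outside the counting interval and 0 changed direction past 2-fold. That 0 was fixed in advance. A pseudocount keeps the direction, and the other settings tried on single genes shifted all genes alike, by 0.0495 or 0.0366 on the log2 scale. No paired analysis was possible because a group never holds more than 1 library. Depth limits the day 0 library most, at 0.161 CPM.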

Other observations

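Further gene groups, chosen after values had been seen and so given only as descriptions, also differed between the libraries. Guanylate-binding and immunity-related GTPases, which restrict intracellular pathogens and are classically induced by interferon gamma, passed the filter in 6 of 16 cases. These 6 had at most 0.538 CPM at day 0 and passed through the day 6 libraries, so the filter fixed that they were higher, and nothing is read from their count. Gbp2 was at 0.108 CPM at day 0 (2 reads) and at 97.7, 85.9 and 63.7 CPM in Nons, Smarca4.4 and Smarca4.6, and Igtp went from 1 read to 14.5 CPM. Keratins passed in 6 of 46 cases, all higher, and Krt42, which did not pass, went from 9.73 to 0.306 CPM. Claudins were 7 higher and 0 lower of 8 passing among 24. Cldn1 (0 reads) and Cldn9 (0.591 CPM) were under 1 CPM at day 0 and passed through the day 6 libraries. Among claudins that did not pass, Cldn19 (1.13 and 0.0656 CPM) and Cldn5 (0.968 and 0.219 CPM) were lower. Others, such as Cldn11 (0 reads and 1.44 CPM), were higher, so the count is a description. Annexin and S100 genes, calcium-binding proteins of membranes and cytoplasm, were 11 higher and 2 lower of 16 passing among 24, with Anxa3 at 1.08 and 84.4 CPM and S100a13 at 24.2 and 2.47 CPM.

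Eph receptors and ephrins, which signal between touching cells, were 8 higher and 1 lower of 18 passing among 21. Epha1 had 0 reads at day 0 and was at least 315-fold higher in Nons at 50.8 CPM, while Epha4 went from 70.3 to 6.16 CPM. Maternal-effect and oocyte genes passed in 4 of 11 cases, all lower. Ooep, a protein of the subcortical maternal complex, was at 247 CPM at day 0 and at 3.87, 4.18 and 2.60 CPM in Nons, Smarca4.4 and Smarca4.6. H2 genes were 10 higher and 2 lower of 18 passing among 35, and H2-Eb1, a class II chain, was at 20.4 and 0.415 CPM.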
